A study of Mus musculus with 6 samples.

Results

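Expression of 38 genes for histone lysine methylation was described in mouse leukemic blasts that differed in the chromatin regulator Asxl1. The genes were taken from a list of names and encode the enzymes that add or remove methyl groups at lysines of histones H3 and H4 outside the Polycomb group, with the shared subunits of the KMT2 complexes. They are 38 of the 53458 genes over which the deposited transcripts were summed, and all 38 were measured, with at least 337 estimated reads of each in every library. RNA was sequenced from 6 libraries of bone marrow blasts of transplanted C57/BL6 mice with acute myeloid leukemia. All carried the genotype Cebpa-/p30, in which no full-length C/EBPα is made and the short p30 form remains, so no library has normal Cebpa. In 3 libraries Asxl1 was wild type (WT), and in 3 both Asxl1 alleles carried the G643W change (G643W). The question of the comparison is what mutant Asxl1 does to expression when Cebpa is mutated as well. Blasts had been sorted as CD45.2+ cells that lacked B220, CD3 and Ter119 and had little Gr1 or Mac1 on their surface. The labels do not say which libraries come from separate primary leukemias, so each p-value speaks of the variation among these libraries only, some of which can be technical. The labels state neither age nor sex of the mice.

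Histone lysine methylation works through writers, erasers and readers. SET-domain enzymes and the unrelated Dot1l place the mark, and the flavin-dependent Kdm1a or the JmjC-domain enzymes take it off. Methylation of H3K4 marks promoters and enhancers, that of H3K36 and H3K79 lies over transcribed genes, that of H3K9 and H3K27 goes with silencing, and that of H4K20 by Kmt5a follows the cell cycle. Several of these genes are altered in myeloid leukemia, among them Kmt2a, Setd2, Nsd1 and Kdm6a, and Dot1l, menin and Kdm1a are drug targets there. Asxl1 itself partners the histone H2A deubiquitinase Bap1 and has been linked to H3K4 and H3K27 methylation.

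Library totals ran from 61167075 to 101189225 estimated reads. Asxl1, read first, was at 6.95, 3.68 and 7.15 TPM (a share of the library corrected for transcript length) in WT 1 to 3 and at 13.7, 20.2 and 15.5 TPM in G643W 1 to 3. These levels do not read the changed base. The blasts expressed Ptprc (CD45) at 49.3 to 160.1 TPM in all libraries, while Cd3e, which defines T cells, was at most at 0.219 TPM. The whole list of 12 T and NK cell genes summed to 16.2 to 168 TPM, of which Nkg7 made up 11.1 to 157 TPM. In the same list Cd3d was at 0.478 to 3.09 TPM and Cd4 at 0.0604 to 8.67 TPM. Itgam (Mac1) was at 46.8 to 321 TPM although the gate took cells with little Mac1. Ly6g (Gr1) was at 6.14, 26.8 and 294 TPM in WT and at 10.8, 697 and 245 TPM in G643W, although the gate took cells with little Gr1. Of the 13 gate and progenitor genes edgeR called 0, with 2 at an unadjusted p under 0.05, and beside Asxl1 only Cd34 did not overlap, at 42.7 to 94.0 TPM in WT and 5.82 to 38.3 TPM in G643W. For this list and those below, the shares over all genes tested were 9.66% at an unadjusted p under 0.05 in edgeR and 15.9% without overlap. Over the same genes edgeR called 0.121% and DESeq2 2.07%. Granulocytic RNA varied within both genotypes. The summed level of 18 neutrophil genes was 44713, 41539 and 93879.9 TPM in WT 1 to 3 and 38998, 221491 and 141861 TPM in G643W 1 to 3, so the groups overlapped. The 20 genes of G2 and mitosis summed to 428, 594 and 517 TPM in WT and to 876, 1165 and 981 TPM in G643W. Of these 20 genes edgeR called 0 and DESeq2 5, while 18 had an unadjusted p under 0.05 in edgeR and 16 did not overlap between the groups. The 16 monocyte and dendritic genes summed to 1737, 1330.3 and 942 TPM in WT and to 487, 173 and 398 TPM in G643W, and edgeR called 4 of them lower and DESeq2 9, while 12 had an unadjusted p under 0.05 in edgeR and 12 did not overlap. Their part in the results below was not tested, except where a fit with the neutrophil genes as a covariate is given. In bulk RNA, fewer cells of a type and less RNA per cell cannot be told apart.

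None of the 38 genes passed the test. Differences are G643W minus WT on the log2 scale, from edgeR's quasi-likelihood test on read counts with Benjamini-Hochberg adjustment over all 20654 genes tested, with an adjusted p under 0.05 called. In that test 25 genes of 20654 were called (0.121%), and 0 of the 38. The lowest adjusted p among the 38 was 0.516 in edgeR, for Ehmt2. At an unadjusted p under 0.05, edgeR marked 0 of the 38 against 9.66% of all genes. DESeq2 likewise called 0 of the 38, where it called 2.07% of all genes, and marked 0 of the 38 at an unadjusted p under 0.05 against 12.5% of all genes.

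Differences of the 38 genes ran from -0.70 for Kdm4a to 0.97 for Kdm7a, and 0 of the 38 exceeded 1 in size against 18.4% of all genes tested. Only Kdm7a, Kdm6b, Kdm4a, Kdm4b and Ehmt2 exceeded 0.5, which is 5 of 38 against 44.7% of all genes. The median difference was 0.07 over the 38 and -0.01 over all genes, and the median size was 0.19 against 0.43. In 25 of the 38 the difference lay above 0 (65.8%, against 49.2% of all genes). These genes are more abundant than most: their median level was 69.1 CPM (read counts scaled by TMM to a common library size), against 5.65 CPM over all genes tested. Their median SD between libraries of a group was 0.28 on the log2 scale, against 0.33.

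The 95% intervals set how large a difference these libraries leave possible. In 30 of the 38 genes the interval of the difference lay within 2-fold in both directions (-1 to 1 on the log2 scale), which held for 23.6% of all genes tested. The 8 genes whose interval reached past 2-fold were Kmt2d, Nsd2, Kdm4a, Kdm4b, Ehmt2, Kdm6b, Kdm7a and Kmt5a. An interval that includes 0 does not show that the genotypes were alike. Read counts of 3 of the 38 did not overlap between the groups (7.89%), with Kdm3b above and Nsd1 and Kdm3a below, against 15.9% of all genes tested.

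**Figure D1:**
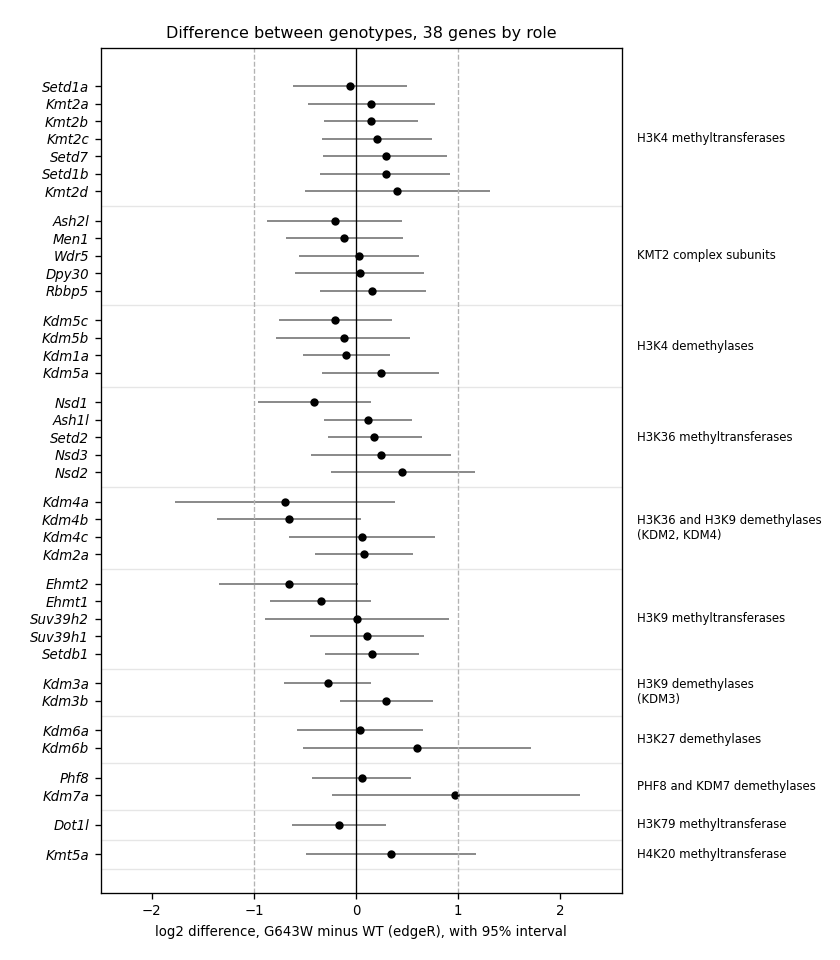
Difference between G643W and WT for the 38 genes, grouped by role. Points are log2 differences from edgeR (3 libraries per group), bars are 95% intervals, and dashed lines mark a 2-fold change. All intervals include 0, and that of Kdm7a, at 0.97, reaches highest.

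The 7 H3K4 methyltransferases differed by -0.06 to 0.40, with 6 above 0, a median of 0.20 and 0 called. Kmt2b, a writer of promoter H3K4 methylation, had the highest TPM of the 7 when all transcripts were summed, though its full-length coding transcripts were only at 1.43 to 2.66 TPM. In reads Kmt2b was at 85.8, 77.9 and 100.3 CPM in WT and at 89.0, 105 and 99.1 CPM in G643W. The groups overlapped, and the difference was 0.15 ± 0.19 (SE), with an interval of -0.30 to 0.60. Setd1b, a catalytic subunit of the SETD1 complexes, was at 56.2, 43.8 and 79.7 CPM in WT and at 62.8, 83.1 and 73.3 CPM in G643W. WT 2 was lowest, and the difference was 0.29 ± 0.26, with an interval of -0.34 to 0.91. Setd7, which adds a single methyl group to H3K4 and to other proteins, was at 37.9, 55.7 and 68.1 CPM in WT and at 59.7, 66.6 and 70.7 CPM in G643W. WT 1 was lowest, and the difference was 0.29 ± 0.25. The remaining genes were Kmt2a, the target of MLL translocations in leukemia, at 59.1 to 105 CPM over the 6 libraries, Kmt2c and Kmt2d, which act at enhancers, at 73.5 to 107 and 116 to 315 CPM, and Setd1a at 49.1 to 80.7 CPM. Of the 7, Kmt2d varied most in WT, with an SD of 107 CPM in WT around a mean of 194 CPM and of 8.63 CPM in G643W around 256 CPM. Single libraries moved these values: over the omissions Setd1b ran from 0.15 (without WT 2) to 0.62 (without WT 3), and Setd7 from 0.08 (without WT 1) to 0.56 (without WT 3).

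Ash2l, Wdr5, Rbbp5 and Dpy30 form the core that all KMT2 and SETD1 enzymes share, and Men1 encodes menin, which anchors Kmt2a and Kmt2b to chromatin. These 5 subunit genes of the KMT2 complexes differed by -0.21 to 0.16, with a median of 0.03 and 0 called. Dpy30 was the most abundant of the 38 in full-length coding TPM, at 27.7, 42.8 and 42.0 TPM in WT and at 50.9, 34.6 and 37.7 TPM in G643W. In reads it was at 22.7, 38.6 and 34.1 CPM and at 39.2, 29.7 and 28.8 CPM. The groups overlapped fully, and the difference was 0.04 ± 0.27, with an interval of -0.59 to 0.66. Leaving out single libraries moved it between -0.16 and 0.23, so it had no stable direction. Ash2l differed by -0.21, Men1 by -0.12, Wdr5 by 0.03 and Rbbp5 by 0.16, and each of these 4 intervals lay within 2-fold.

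Among the H3K4 demethylases, Kdm5a, Kdm5b and Kdm5c remove the higher methylation states of H3K4, and Kdm1a (LSD1) the lower ones. The 4 genes differed by -0.21 to 0.24, with 3 below 0 and 0 called. Kdm1a (ENSMUSG00000036940, chr4:136550540-136602723, minus strand, GRCm38) was at 45.1, 53.3 and 44.4 CPM in WT and at 45.4, 43.5 and 44.7 CPM in G643W. Libraries lay close together, with an SD of 4.93 CPM among the WT and 0.954 CPM among the G643W libraries. The difference was -0.10 ± 0.18, with an interval of -0.51 to 0.32. Its sign was not stable: on counts rebuilt from TPM the difference was 0.19. Kdm5b, at 25.3 to 45.3 CPM, was highest in WT 2 and lowest in G643W 1. Kdm5a differed by 0.24 and the X-linked Kdm5c by -0.21.

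Below the gene level, Kdm1a transcripts carried the lowest p-value of any transcript of the 38 genes. A set of 3 coding transcripts holds most of its reads, and they differ at an in-frame coding exon of 60 bases, chr4:136582040-136582099 on the minus strand (GRCm38, GENCODE M21). Kdm1a-202 (20 exons) holds this exon as its exon 3, and Kdm1a-203 (19 exons) and Kdm1a-201 (17 exons) skip it. The stretch is shown because it separates the form with the largest difference from the main one. Capitals mark the exon and lower case 20 coding bases of the neighbouring exons on each side, 5′ to 3′ on the transcript strand:

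Kdm1a-202: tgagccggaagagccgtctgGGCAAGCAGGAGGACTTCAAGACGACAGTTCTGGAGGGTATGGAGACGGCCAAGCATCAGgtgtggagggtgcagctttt

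Kdm1a-203: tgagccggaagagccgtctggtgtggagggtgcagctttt

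Kdm1a-203 was at 1.58, 2.21 and 1.75 TPM in WT and at 0.298, 0.375 and 0.118 TPM in G643W. All G643W libraries lay below all WT libraries. In the edgeR fit over 58839 transcripts the difference was -2.92 ± 0.54, with an unadjusted p of 0.00144 and an adjusted p of 0.269, which did not pass. Kdm1a-201 was at 1.77, 2.44 and 1.83 TPM in WT and at 3.24, 2.73 and 2.87 TPM in G643W, also without overlap in TPM but in the other direction (edgeR difference 0.42 ± 0.26). Kdm1a-202 overlapped, at 3.79, 2.69 and 3.11 TPM in WT and at 3.89, 3.22 and 3.66 TPM in G643W. For the exon as a whole the groups were not separate. Transcripts that skip it made up 46.9%, 63.3% and 53.6% of the TPM of these 3 transcripts in WT and 47.7%, 49.0% and 44.9% in G643W. Salmon divides the reads of shared exons between such transcripts by a model, and Kdm1a-203 and Kdm1a-201 also differ from each other at their ends and in other exons.

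**Figure D2:**
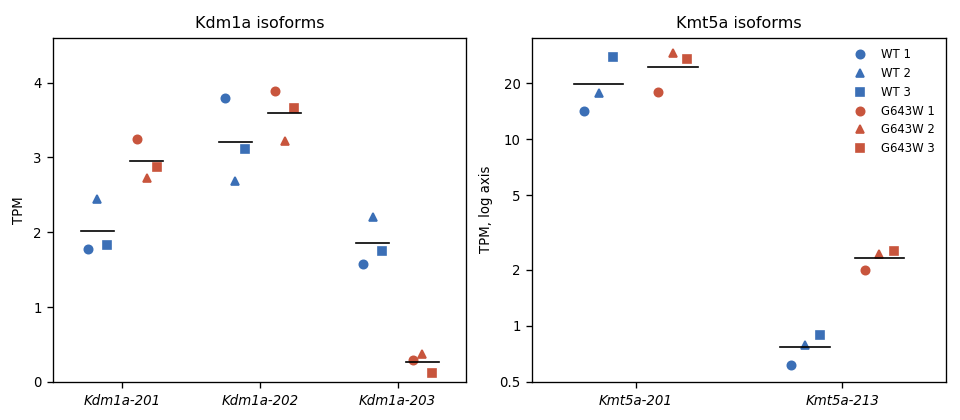
Levels in TPM of Kdm1a transcripts (left) and of Kmt5a transcripts (right, log axis), 1 point per library, with bars at the group means. G643W libraries lie below WT for Kdm1a-203 (0.118 to 0.375 against 1.58 to 2.21 TPM) and above it for Kmt5a-213 (1.99 to 2.52 against 0.617 to 0.892 TPM), while Kdm1a-202 and Kmt5a-201 overlap.

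Setd2 writes H3K36 trimethylation behind elongating polymerase, and Nsd1, Nsd2, Nsd3 and Ash1l write the dimethyl mark. The 5 H3K36 methyltransferases differed by -0.41 to 0.45, with 4 above 0, a median of 0.18 and 0 called. Nsd1 (ENSMUSG00000021488, chr13:55209782-55318325, plus strand) was at 118, 124 and 114 CPM in WT and at 114, 69.7 and 85.2 CPM in G643W. G643W lay below WT without overlap, but G643W 1 differed from WT 3 by less than the 3 digits printed here, and 8.89% of all genes tested lay below in this way. The difference was -0.41 ± 0.23, with an interval of -0.95 to 0.14 and an adjusted p of 0.563 in edgeR. In TPM the groups overlapped, and G643W 1 was the highest library at 13 TPM against 9.14 to 9.83 TPM in WT. The Nsd1 difference was -0.12 on counts rebuilt from TPM, -0.08 with limma on log2(TPM + 1) and -0.25 without G643W 2. Nsd2, the paralog with the highest level in this role over all transcripts, was at 71.3, 104 and 153 CPM in WT and at 144, 155 and 151 CPM in G643W. WT 1 was lowest and WT 3 as high as the G643W libraries, and the difference was 0.45 ± 0.29, with an interval of -0.24 to 1.15. Without WT 3 it was 0.84 and without WT 1 it was 0.21, with no call in either. Setd2 stood at 105 to 149 CPM and differed by 0.18, Ash1l at 43.3 to 55.5 CPM and differed by 0.12, and Nsd3 at 94.9 to 179.9 CPM and differed by 0.24. Most Nsd3 reads lay on coding transcripts with under 80% of the longest coding sequence, 57.2% ± 7.83 (SD, n = 3) in WT and 57.2% ± 3.18 in G643W. The best known short form of Nsd3 lacks the SET domain.

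Kdm2a removes methyl groups from H3K36, and Kdm4a, Kdm4b and Kdm4c from trimethylated H3K9 and H3K36. These 4 demethylases differed by -0.70 to 0.08, with 2 below 0 and 0 called. Kdm4a (ENSMUSG00000033326, chr4:118136957-118180043, minus strand) had the largest negative difference of the 38. It was at 279.7, 121 and 78.7 CPM in WT and at 88.8, 98.4 and 109 CPM in G643W. WT 1 stood far above the other 5 libraries, and WT 3 was the lowest of all 6. The difference was -0.70 ± 0.45, with an interval of -1.76 to 0.37, and without WT 1 it was -0.03. Kdm4b was at 30.2, 22.3 and 16.7 CPM in WT and at 17.4, 13.3 and 13.2 CPM in G643W. WT 3 lay between the G643W libraries, the difference was -0.66 ± 0.30, and edgeR gave an unadjusted p of 0.0610 and an adjusted p of 0.527. WT 1 was again highest, and without it the difference was -0.42. Kdm2a, at 99.9, 115 and 121 CPM in WT and at 100.3, 132 and 122 CPM in G643W, differed by 0.08 ± 0.20, with an interval of -0.39 to 0.55. Kdm4c differed by 0.06 and was highest in WT 1 and lowest in G643W 1.

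Ehmt1 (GLP) and Ehmt2 (G9a) form the heterodimer that writes H3K9 dimethylation in euchromatin, Setdb1 silences retroelements, and Suv39h1 and Suv39h2 act at pericentric heterochromatin. The 5 H3K9 methyltransferases differed by -0.66 to 0.16, with a median of 0.01 and 0 called. In read counts both partners of the G9a and GLP pair had a negative difference. Ehmt2 (ENSMUSG00000013787, chr17:34898469-34914052, plus strand) was at 223, 199 and 149.8 CPM in WT and at 163, 95.1 and 104 CPM in G643W. G643W 1 lay above WT 3, so the groups overlapped. The difference was -0.66 ± 0.28, with an interval of -1.33 to 0.01 and an unadjusted p of 0.0531 in edgeR, the lowest of the 38 genes. Ehmt1 was at 51.2, 59.3 and 65.2 CPM in WT and at 54.7, 41.0 and 42.8 CPM in G643W. Here too G643W 1 lay inside the WT range, and the difference was -0.34 ± 0.21, with an interval of -0.83 to 0.14. In TPM the Ehmt1 means were 9.37 ± 1.48 in WT and 8.90 ± 3.17 in G643W, with G643W 1 highest at 12.5. Its difference was -0.15 on counts rebuilt from TPM and -0.10 with limma on log2(TPM + 1), where Ehmt2 had -0.55 and -0.50. Without WT 3 the Ehmt1 difference was -0.20. By read counts, in both genes G643W 2 was the lowest library, and it is also the library with the highest neutrophil sum. G643W 2 also had the highest sum of the G2 and mitosis genes and the lowest sum of the monocyte and dendritic genes. With the neutrophil covariate the differences were -0.40 for Ehmt2 and -0.31 for Ehmt1. Setdb1 and Suv39h1 differed by 0.16 and 0.11. Suv39h2 was the least abundant of the 38 at 4.43 to 9.64 CPM and differed by 0.01, with an interval of -0.88 to 0.90.

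Kdm3a and Kdm3b remove the lower methylation states of H3K9, and they are 2 of the 3 genes whose groups did not overlap in read counts, in opposite directions. Kdm3a was at 71.1, 77.2 and 63.3 CPM in WT and at 61.4, 55.8 and 57.0 CPM in G643W. By read counts G643W was lower in every library, by -0.28 ± 0.18 on the log2 scale, with an interval of -0.70 to 0.14 and an adjusted p of 0.581 in edgeR. In TPM the Kdm3a groups overlapped, at 14.4, 16.4 and 13.2 in WT and at 15.2, 11.1 and 12.5 in G643W. Kdm3b was at 129.5, 132 and 144 CPM in WT and at 147, 177 and 173 CPM in G643W. It was higher in every G643W library, by 0.29 ± 0.19, with an interval of -0.15 to 0.74 and an adjusted p of 0.585 in edgeR. Of all genes tested, 7.05% lay above WT without overlap.

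The size of the Kdm3b difference depended on the unit. In TPM it was at 10.5, 9.60 and 13.7 in WT and at 17.8, 19.3 and 30 in G643W, and limma on log2(TPM + 1) gave 0.90 with an adjusted p of 0.437. A single annotated transcript of 42 bases, Kdm3b-203, held 0, 0 and 1 reads in WT and 2, 4 and 7 reads in G643W. Because TPM divides by length, those reads stood for 0, 0 and 2.04 TPM and for 4.88, 6.5 and 15.4 TPM. The full-length coding transcript Kdm3b-201 was at 5.63, 5.38 and 7.0 TPM in WT and at 7.24, 7.83 and 8.02 TPM in G643W, and its difference in reads was 0.25 ± 0.19. Likewise 130-base Kdm4b-206, with 13 reads in WT 1, stood for 15.8 of the 21.1 TPM of Kdm4b there. Levels between genes are therefore better read from the full-length coding transcripts (those with at least 80% of the longest coding sequence). On that scale Dpy30 at 39.3 ± 7.95, Kmt5a at 25.1 ± 7.68 and Wdr5 at 23.0 ± 4.91 TPM (mean ± SD of 6 libraries) were the highest of the 38. Dpy30 overlapped with Kmt5a, and Kmt5a with Wdr5, in range over the libraries. Kmt2c at 1.45 ± 0.445, Kdm4b at 1.04 ± 0.253 and Suv39h2 at 0.250 ± 0.0667 TPM were the lowest, and Suv39h2 lay below all others in every library.

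Kdm6a (UTX), a subunit of the KMT2C and KMT2D complexes, and Kdm6b (JMJD3), which is inducible by inflammatory signals in myeloid cells, remove the Polycomb mark on H3K27. Neither was called. Kdm6a was at 53.0, 62.8 and 61.3 CPM in WT and at 41.4, 64.7 and 76.4 CPM in G643W. G643W held both the lowest and the highest library, and the difference was 0.04 ± 0.26, with an interval of -0.57 to 0.65. Kdm6b was at 75.9, 39.1 and 96.1 CPM in WT and at 51.0, 148 and 119 CPM in G643W. G643W 2 and 3 lay above all WT libraries and G643W 1 below 2 of them. The difference was 0.60 ± 0.47, with an interval of -0.51 to 1.70, and it was 1.01 without G643W 1 and 0.28 without G643W 2.

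Kdm7a and its X-linked paralog Phf8 read methylated H3K4 with a PHD finger and remove repressive methyl marks. Kdm7a (ENSMUSG00000042599, chr6:39136623-39206789, minus strand) had the largest difference of the 38. It was at 133, 131 and 158 CPM in WT and at 87.7, 381 and 359 CPM in G643W. G643W 2 and 3 were more than 2-fold above every other library and G643W 1 was the lowest of all 6. The difference was 0.97 ± 0.51, with an interval of -0.23 to 2.18 and an adjusted p of 0.546 in edgeR. Without G643W 1 it was 1.48 with an adjusted p of 0.0860 in edgeR, and over all single omissions it ran from 0.67 to 1.48. Nearly all reads lay on the full-length coding transcripts, 99.4% ± 0.326 in WT and 99.0% ± 0.496 in G643W. Phf8, at 35.8 to 48.8 CPM, differed by 0.06, with an interval of -0.42 to 0.53.

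The neutrophil genes are set beside these values. The mean log2 level of the 18 neutrophil genes, relative to the 6-library mean, was -2.43, -1.06 and 1.13 in WT 1 to 3 and -1.75, 2.39 and 1.72 in G643W 1 to 3. G643W 2 and 3, the libraries with the highest values, were also the highest for Kdm7a and Kdm6b. The order did not hold among the others: WT 1 had the lowest neutrophil mean, while Kdm6b was lowest in WT 2 and Kdm7a in G643W 1. G643W 2 and 3 also had the highest means of the G2 and mitosis genes (0.86 and 0.44). Their means of the monocyte and dendritic genes (-1.72 and -0.81) were the lowest. With the neutrophil mean as a covariate the difference of Kdm7a was 0.15 ± 0.43 and that of Kdm6b 0.06 ± 0.41. Kdm4a went from -0.70 to -0.24, Kdm4b from -0.66 to -0.38 and Kmt5a from 0.34 to -0.02 in the same fit. Other values were larger in size, with Kdm5c from -0.21 to -0.43 (unadjusted p = 0.0598 in edgeR, as low as that of Ehmt2), Kdm5b from -0.12 to -0.27 and Kdm6a from 0.04 to -0.21. In all, 30 of the 38 differences were smaller in size with the covariate and 8 larger. With the covariate edgeR called 0 of the 38, and 0 had an unadjusted p under 0.05. Of the 18 neutrophil genes 17 differed above 0, with a median of 1.46. The covariate thus goes partly with genotype, so this fit cannot tell neutrophil RNA and genotype apart.

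Dot1l, the only enzyme known for H3K79 methylation and a requirement of KMT2A-rearranged leukemia, was at 74.6, 65.7 and 62.7 CPM in WT and at 69.4, 56.4 and 54.6 CPM in G643W. G643W 1 lay inside the WT range, and the difference was -0.17 ± 0.19, with an interval of -0.62 to 0.28. Kmt5a (SET8), which writes the single methyl group on H4K20 and is most active around mitosis, was at 93.3, 130 and 193 CPM in WT and at 118, 217 and 190.5 CPM in G643W. The groups overlapped, and the difference was 0.34 ± 0.35, with an interval of -0.48 to 1.16. It was 0.12 without WT 1, 0.15 without G643W 2, 0.64 without G643W 1 and 0.73 without WT 3. Its lowest library, WT 1, also had the lowest mean of the G2 and mitosis genes, -0.76 on the relative log2 scale, with -0.18 and -0.56 in WT 2 and 3 and 0.20, 0.86 and 0.44 in G643W 1 to 3. Among the other libraries the order did not hold: WT 3, with Kmt5a at 193 CPM, had a lower mean than G643W 1, with 118 CPM. The part of cycling cells in the Kmt5a value was not tested.

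One Kmt5a transcript did not overlap between the genotypes. Kmt5a-213, annotated as a target of nonsense-mediated decay, skips exon 2 of the main coding transcript Kmt5a-201, chr5:124445969-124446084 on the plus strand (GRCm38, GENCODE M21). The exon has 116 bases, which is not a multiple of 3, so skipping it shifts the reading frame, and the annotated coding sequence is 114 bases in Kmt5a-213 against 1050 in Kmt5a-201. The junction is shown because it sets the frame of the 2 forms, with the exon in capitals and 10 coding bases on each side in lower case, 5′ to 3′, beginning at the start codon:

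Kmt5a-201: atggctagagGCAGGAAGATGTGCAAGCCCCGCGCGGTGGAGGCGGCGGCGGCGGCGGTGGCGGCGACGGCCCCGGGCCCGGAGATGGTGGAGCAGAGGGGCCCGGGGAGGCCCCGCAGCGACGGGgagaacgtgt

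Kmt5a-213: atggctagaggagaacgtgt

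Kmt5a-213 was at 0.617, 0.788 and 0.892 TPM in WT and at 1.99, 2.42 and 2.52 TPM in G643W. All G643W libraries were above all WT libraries, WT 3 among them, where Kmt5a reads as a whole were at 193 CPM. The difference was 1.48 ± 0.30 in edgeR over all transcripts, with an unadjusted p of 0.00227 and an adjusted p of 0.320, which did not pass. Leaving out single libraries kept it between 1.33 and 1.63. Kmt5a-201 was at 14.2, 17.6 and 27.6 TPM in WT and at 17.8, 28.9 and 26.9 TPM in G643W and differed by 0.21 ± 0.33. Of the TPM of transcripts that either hold or skip exon 2, the skipping form made up 4.14%, 4.29% and 3.12% in WT and 10%, 7.72% and 8.55% in G643W. This share was chosen after the values were seen and has no test. Kmt5a-213 also ends earlier than Kmt5a-201 in the 3′ region, so reads of either difference can assign to it.

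Over all transcripts, those of the 38 genes stood near the background. The tables hold 307 of them, 249 could be tested and edgeR called 0, where it called 5 of 58839 in all (0.00850%). At an unadjusted p under 0.05 it marked 15 of the 249 (6.02%) against 7.15% of all transcripts. Groups did not overlap in 37 (14.9%), 22 higher and 15 lower, against 16.3% of all. Beside Kdm1a-203 and Kmt5a-213, the lowest p-values belonged to Kdm5a-204, Setd2-210 and Dpy30-201. Kdm5a-204, also annotated for nonsense-mediated decay, was at 0.121, 0.158 and 0.390 TPM in WT and at 0.802, 0.499 and 1.22 TPM in G643W, with a difference of 1.80 ± 0.56 and an adjusted p of 0.652 in edgeR. The main coding transcript Kdm5a-201 held 83.9% of that gene's reads and differed by 0.12 ± 0.25. Setd2-210, a shorter coding transcript with 6.65% of the Setd2 reads, differed by -0.88 ± 0.30, and Dpy30-201, with 1.58% of the Dpy30 reads, by -1.56 ± 0.55.

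The share of reads on full-length coding transcripts was steady over the 38 genes together, from 79.8% to 82.2% per library, and reads on transcripts for nonsense-mediated decay made up 3.11% to 4.07%. Within genes, this share did not overlap between the groups in 9 of the 38 (23.7%), against 16.0% of 11389 genes with such a mix. It was higher in G643W for Kmt2c, Kdm5c and Suv39h2 and lower for Setd1a, Setd1b, Setd7, Kdm1a, Nsd1 and Kmt5a. For Kdm1a it was 75.0%, 64.6% and 67.6% in WT and 53.5%, 55.0% and 49.9% in G643W. Shorter coding transcripts of Kdm1a held 25.8% ± 7.35 of its reads in WT and 41.8% ± 3.05 in G643W. The full-length class of Kdm1a is Kdm1a-202 with Kdm1a-203, and Kdm1a-201 counts as shorter. The Kdm1a shares are therefore not separate from the values of Kdm1a-203 and Kdm1a-201 above. Kdm1a-202, the main full-length form, overlapped between the groups in TPM. Kmt2c was one of the larger cases: 39.2%, 42.4% and 51.7% of its reads lay on the 59-exon transcript Kmt2c-201 in WT and 56.8%, 55.1% and 59.3% in G643W. Most of the rest lay on the 18-exon Kmt2c-208, at 2.89 (WT 1), 2.86 (WT 2) and 3.02 TPM (WT 3) and at 2.47 to 2.81 TPM over the G643W libraries. In edgeR, Kmt2c-201 differed by 0.50 ± 0.27 (adjusted p = 0.736) and Kmt2c-208 by -0.25 ± 0.19 (adjusted p = 0.787), so neither passed. For Setd1a, Setd1b, Setd7 and Nsd1 the group means of the share were at most a few percentage points apart, for example 95.1% ± 0.232 and 93.2% ± 0.368 for Nsd1. In some genes the nearest libraries hardly differed. Setd1a was at 97.0% in both WT 2 and G643W 1, and Setd7 at 97.5% in both WT 3 and G643W 1, to the digits printed. Suv39h2 was at 23.6% in WT 3 and 23.8% in G643W 1.

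The libraries differed in which of these genes were high. G643W 2 held the highest value for 12 of the 38 and WT 3 for 8, while WT 1 held the lowest value for 16. The median relative log2 level of the 38 was -0.15, -0.03 and 0.10 in WT 1 to 3 and -0.03, 0.13 and 0.12 in G643W 1 to 3, so the groups overlapped.

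**Figure D3:**
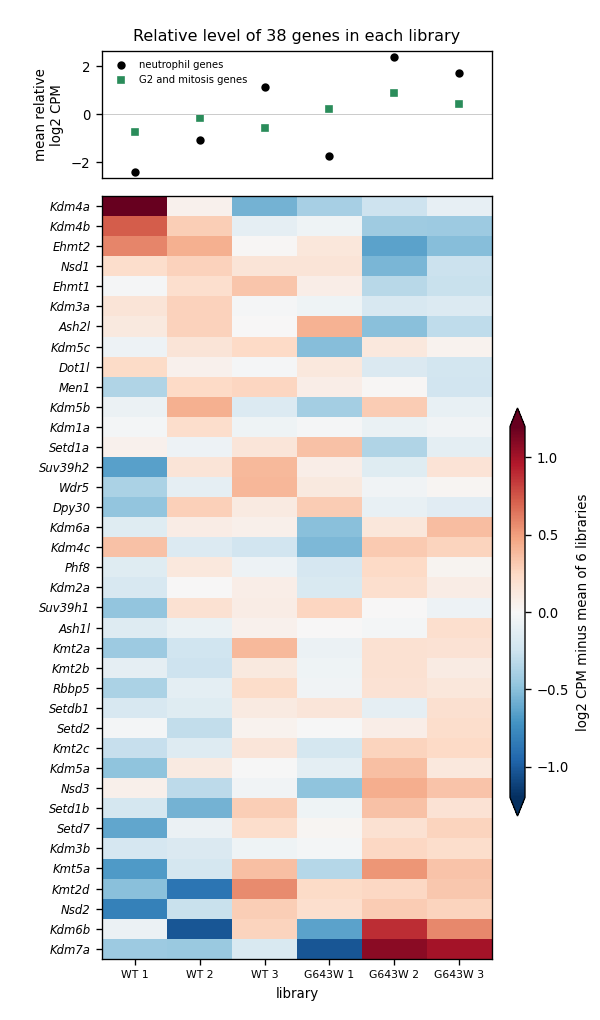
Level of the 38 genes in each library as log2 CPM minus the mean of the 6 libraries (colour), ordered by the difference between genotypes, with the mean relative log2 level of the neutrophil genes and of the G2 and mitosis genes above. WT 1 is lowest for 16 genes, and Kdm6b and Kdm7a at the bottom are high in G643W 2 and 3 and low in G643W 1.

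**Figure D4:**
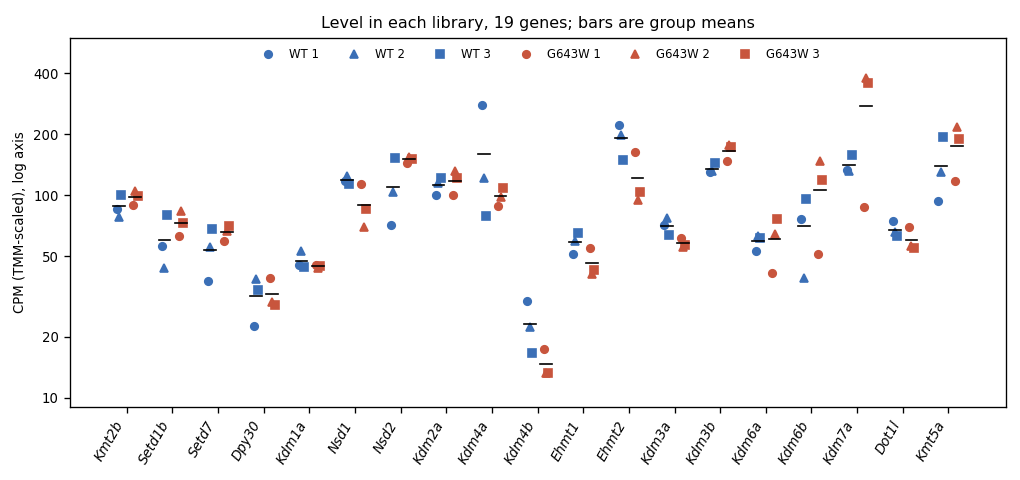
TMM-scaled CPM (log axis) of the 19 genes described with all library values, 1 point per library, with bars at the group means of 3. Groups overlap for all but Nsd1, Kdm3a and Kdm3b, WT 1 stands apart for Kdm4a at 279.7 CPM, and G643W 1 lies below the other G643W libraries for Kdm7a at 87.7 CPM.

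Of the 38 genes, 4 lie on the X chromosome: Kdm5c, Kdm6a, Phf8 and Suv39h1. Kdm5c and Kdm6a are known to escape X inactivation, so their level can depend on sex. Y-linked genes summed to 0.339 to 0.765 TPM over the 6 libraries, with Zfy1 and Zfy2 not detected in any. Xist was at 27.4, 83.1 and 72.1 TPM in WT and at 9.91, 35.7 and 58.1 TPM in G643W. With Xist RNA in every library and these low Y-linked sums, no library stood out as male. G643W 1, lowest in Xist, was also lowest in Kdm5c at 70.5 CPM in Kdm6a at 41.4 CPM and in Phf8 at 35.8 CPM, while Suv39h1 was highest there at 84.7 CPM. Eif2s3x, another gene that escapes inactivation, was also lowest in G643W 1. It was at 181, 249.5 and 213 CPM in WT and at 132, 136 and 165 CPM in G643W, without overlap. In edgeR the Eif2s3x difference was -0.57 ± 0.22, with an unadjusted p of 0.0345, and it was not called. Ddx3x, which escapes inactivation as well, went the other way, also without overlap. It was at 408, 338 and 400.1 CPM in WT and at 416, 449 and 526 CPM in G643W (0.28 ± 0.22). Of all genes tested, 15.9% did not overlap in either direction. The part of the X chromosome in these values was not tested. The 4 genes differed by -0.21, 0.04, 0.06 and 0.11 in the order given.

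Genes that work with the 38 were read from lists of names. In each list edgeR called 0 genes in either direction, and DESeq2 called 1 gene over all of them, Mllt6. Over all genes tested edgeR called 0.121% and DESeq2 2.07%. Of all genes tested, 9.66% had an unadjusted p under 0.05 in edgeR and 15.9% did not overlap between the groups. Of the other lysine methyltransferases 20 of 24 were measured, with a median difference of -0.12. Of these 1, Setd3, had an unadjusted p under 0.05 in edgeR. Setd3 was at 109.6, 117 and 105 CPM in WT and at 78.9, 85.5 and 84.5 CPM in G643W (-0.41 ± 0.17). In TPM its groups overlapped, at 114, 111 and 115 in WT and at 93.0, 113 and 134 in G643W, with a mean of 113 in both. Of the other demethylases 13 of 14 were measured, with a median of -0.13 and 1 at an unadjusted p under 0.05, Riox2 (-0.62 ± 0.21). The 15 partners of the KMT2 and SETD1 complexes had a median of -0.05, with 2 at an unadjusted p under 0.05 in edgeR. Ncoa6, a coactivator subunit of the KMT2C and KMT2D complexes, was at 52.0, 29.0 and 45.4 CPM in WT and at 62.4, 93.9 and 84.1 CPM in G643W, without overlap (0.93 ± 0.28, adjusted p = 0.477 in edgeR). The 12 partners of Dot1l and elongation had a median of 0.19, with 1 at an unadjusted p under 0.05 in edgeR. Mllt6 (AF17), a Dot1l-binding protein, was at 26.4, 15.9 and 8.98 CPM in WT and at 6.94, 2.06 and 3.04 CPM in G643W, without overlap (-2.09 ± 0.60, adjusted p = 0.454 in edgeR). The 18 partners of Kdm1a in CoREST and NuRD had a median of 0.00, with 3 at an unadjusted p under 0.05 in edgeR. These were Mta3 (-0.80), Hmg20b (-0.45) and Hdac1 (0.53), which point in different directions. Of the HP1 and H3K9 silencing partners 11 of 13 were measured, with a median of -0.09 and 0 at an unadjusted p under 0.05, and the lowest p was that of Trim28 (-0.57 ± 0.33).

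Some values rest on reads that other genes could share. Setd1a has a stretch of 59.5% of its length in common with the gene model Gm49388, at 100% identity, which held 256.6 reads on average against 4783 for Setd1a. The Rbbp5 pseudogene Gm11977 matches 51.2% of its length at 96.3% identity and held 8.2 reads on average. Ash1l, Kdm5a, Nsd2, Setdb1 and Suv39h2 share exon bases with a coding gene on the opposite strand (Dap3, Ccdc77, Nelfa, Cers2 and Dclre1c). No source states a strand setting for the counting, and reads in those 60 to 357 shared bases cannot be told apart. Of these, Suv39h2 has the fewest reads of its own, 557 on average, against 1860.6 for Dclre1c.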

How the data were processed

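Estimated read counts and TPM were analysed for 6 libraries, 3 per Asxl1 genotype. The authors deposited one table per library with an estimated count of reads and a TPM value for each transcript, per the file headers. Per the submitters' processing notes, the tools were bcl2fastq and Salmon 0.12.0 and the builds GRCm38.p6 and mm10. Options, transcript index and strand setting of Salmon were not given in the sources used here. Of 136288 transcripts per table, 136176 matched GENCODE M21 (GRCm38) and were summed per gene. The other 112, with up to 0.0365% of the reads in a library, were dropped.

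Summed counts were rounded, filtered with filterByExpr (minimum count 10), TMM-scaled and tested two-sided for genotype in R 4.3.3 by the quasi-likelihood functions glmQLFit and glmQLFTest of edgeR 4.0.16, with Benjamini-Hochberg adjustment over 20654 genes. Transcripts were tested in the same way over 58839. Standard errors are the log2 difference's size divided by the square root of F, and 95% intervals use the fit's degrees of freedom. The common biological coefficient of variation was 52.8%. Alternatives used DESeq2 1.42.0, limma 3.58.1 on log2(TPM + 1) and log2(TPM + 0.1), other scaling and filters, length-scaled counts, a replicate block, the mean of the neutrophil genes as a covariate, and each library left out. The steps were tested on simulated data. Copies at 95% identity over at least 50% of the length were sought with BLAST+ 2.17.0. All pairs of libraries differed by more than sampling noise.

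The members and the 16 gene lists were chosen with earlier results of these data known. Of the list symbols, 212 of 214 matched the annotation. All library values are given, by rule, for the 12 genes with the lowest p, for the gene with the highest TPM in each of the 11 roles, and for every gene whose groups did not overlap. For each list of partner genes the rule names the gene with the lowest p, and Hmg20b and Hdac1 were added after their values were seen, as were the transcripts Kmt2c-201, Kmt2c-208, Kdm3b-203, Kdm3b-201 and Kdm4b-206. For transcripts it names the 5 lowest p, beside which other transcripts of the same genes are given for reference. Protein sequences were not used here.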

Additional observations from a re-analysis of the deposited data

How the results depend on the processing

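Of the 38 genes 0 were called, and of their transcripts 0, in each alternative run. Over all genes, edgeR's 25 calls became 16 with no scaling factor, 104 with no filter, 10 on length-scaled counts and 0 to 16 with a library left out, and DESeq2 made 427 and limma on log2(TPM + 0.1) 43. With the replicate number as a block, edgeR called 0 genes, with 1772 at an unadjusted p under 0.05, and 0 transcripts. Same-numbered libraries deviated with correlations of 0.112, -0.165 and 0.176, against -0.284 to 0.228 for the other pairs. Of the 6 libraries WT 1 and G643W 3 correlated best with their own number. Same-numbered libraries differ in Asxl1 genotype, and each title carries an identifier of its own. With 3 libraries per genotype these values cannot settle whether a number marks a shared batch, which the labels do not say. The 5 calls over all transcripts became 30 with no filter and 0 to 1 with a library left out. The median difference of the 38 genes, 0.07, was 0.18 on length-scaled counts, 0.20 and 0.22 with limma on log2(TPM + 1) and log2(TPM + 0.1), and -0.01 to 0.25 with a library left out. Signs turned for Kdm1a (0.19 on length-scaled counts, 0.23 and 0.25 with limma, -0.14 to 0.03 with a library left out) and for Kdm6a (-0.02 with no scaling factor, -0.21 with the neutrophil covariate, -0.16 to 0.34 with a library left out). They also turned for Kdm2a (-0.06 with the covariate, -0.01 to 0.27 with a library left out), Kmt5a (-0.02 with the covariate) and Dpy30 (-0.16 to 0.23 with a library left out). The cause of these changes was not tested. The other 310 values of single genes and transcripts kept their sign and their side of the threshold. With 3 libraries per genotype, a 2-fold difference lies within the interval of 8 of the 38 genes.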

Other observations

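Arginine methyltransferases, which methylate histone arginines rather than lysines, had a negative median difference by read counts. Their summed level overlapped between the groups, at 144, 180.2 and 154 TPM in WT and at 184, 66.3 and 89.9 TPM in G643W. G643W 1 was the highest library in this sum. Of 9 listed genes 8 were measured, 7 differed below 0 and 1 above, and 49.2% of all genes tested lay above 0. The median difference was -0.62, against -0.01 over all genes tested. Of these 8, edgeR and DESeq2 called 0, and 1 (Prmt2) had an unadjusted p under 0.05 in edgeR, against 9.66% of all genes tested. Prmt1, which makes most asymmetric arginine methylation, was at 100.4, 143 and 103 CPM in WT and at 108, 44.6 and 55.3 CPM in G643W. Prmt5, the main symmetric enzyme, was at 36.2, 53.0 and 44.9 CPM in WT and at 54.3, 18.2 and 26.3 CPM in G643W. In both genes G643W 1 lay within or above the WT range and G643W 2 and 3 below it. Prmt2 was at 6.53, 8.0 and 1.30 CPM in WT and at 1.61, 0.0899 and 0.283 CPM in G643W. Prmt9 was the 1 gene above 0, at 0.36 ± 0.29. The neutrophil sum was 38998 TPM in G643W 1 and 221491 and 141861 TPM in G643W 2 and 3. Its part in these values was not tested.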
